A study of Homo sapiens with 6 samples.

Results

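The nuclear genes for respiratory complexes II and III, cytochrome c and ATP synthase were followed in a copper-adapted renal carcinoma line, 786-O. The set was a list of 43 gene symbols, and all 43 were found among the 25992 genes of the deposited count table. It holds 4 subunits and 4 assembly factors of complex II, 9 subunits and 6 assembly factors of complex III, and cytochrome c. For ATP synthase it holds 15 subunits, the inhibitor ATP5IF1 and 3 assembly factors. All 43 passed the filter on low counts, with 95 counts or more in every library.

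786-O is an established human line of clear cell renal cell carcinoma, and both groups were labelled wild type. The 3 copper libraries came from cells adapted to copper sulfate that had been bound to serum proteins before use in DMEM/F12 medium, and the 3 control libraries from cells given serum handled alike without copper. The dose is 30 uM in the series text but 30, 31 and 32 uM in the sample labels of copper 1, 2 and 3, and all 3 were treated as 1 group. The time in copper and the number of clones were not given in the sources used here, and neither was whether replicates were separate cultures, so p-values measure only the spread between these libraries, which may be technical.

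Library totals ran from 16301772 to 18189469 counts in copper and from 19219090 to 25079913 in control, and 12944 genes were tested. Replicate 3 stood apart in both groups, with chi-square values of 19.8 to 61.1 per degree of freedom against replicates 1 and 2 of its own group, where replicates 1 and 2 gave 5.04 and 5.55. Differences by replicate number are therefore given for the set and for the genes described in most detail, and the plot of these differences shows them for all 43. Of 9 markers of the line, 7 had at least 135 counts in every library, among them the renal factor PAX8 at 123 to 147 CPM, counts scaled to library size. CA9 had 0 to 2 counts, and NDUFA4L2 14 to 28. Of 12 markers of other cell types, 10 had under 10 counts in every library and HBB had 0. The 12 summed to 3.59 to 5.71 CPM in copper and 4.86 to 9.89 in control. Most of this was COL1A1, at 2.07 to 4.47 CPM in copper and 3.90 to 8.67 in control. Its differences in log2 CPM, copper minus control, were -0.88, -1.21 and -0.64 in replicates 1, 2 and 3. Of all genes, 17% were lower in copper in all 3. By edgeR, COL1A1 had no adjusted p under 0.05 with or without replicate number as a block. In bulk RNA, fewer cells of a type and less RNA per cell cannot be told apart.

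Complex II, or succinate dehydrogenase, oxidises succinate in the TCA cycle and passes the electrons to coenzyme Q in the inner mitochondrial membrane. Complex III takes them from there to cytochrome c, a small haem protein, and pumps protons. ATP synthase lets the protons flow back through a membrane ring and turns that movement into ATP in its catalytic head. Clear cell renal carcinomas are known for low respiration. The copper enzyme of the chain, cytochrome c oxidase, stands between complex III and ATP synthase, and none of the 43 genes codes for a copper protein. Genes of mitochondrial DNA were not analysed here.

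No gene of the set was called between copper and control. By edgeR's quasi-likelihood test without a replicate block, 0 of 43 had an adjusted p under 0.05, as did 0% of all genes tested. With the replicate number as a block 0 of 43 were called, against 0.17% of all genes. DESeq2 without the block also called 0 of 43, against 0.209% of all genes, and limma-voom called 0 of 43 and 0 of all genes. At an unadjusted p under 0.05 there was 1 gene without the block, ATP5MG, against 3.52% of all genes. With the block there were 2, ATP5MG and ATP5ME, against 8.41%. The smallest adjusted p in the set was 1.00 without the block and 0.50 with it, both by edgeR.

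The genes nevertheless leaned to one side by small amounts. The log2 fold change, copper over control, was above 0 for 36 of 43, against 51.4% of all genes tested. It was above 0 for 40 with upper-quartile and 41 with total-count scaling, for 32 with no filter, for 27 without copper replicate 3, and for 25 with the block after removal of a trend in transcript length and in GC content. It ranged from -0.08 for ATP5F1A to 0.30 for ATP5MG, with a median of 0.10, while the median of all genes was 0.0052. This came mainly from replicate 3. The median difference in log2 CPM was 0.04 in replicate 1, 0.06 in replicate 2 and 0.21 in replicate 3, where all genes were at 0.0018, 0.0066 and 0.0019. Numbers of genes above 0 were 25, 33 and 34 of 43. Copper replicate 3 held the highest value of all 6 libraries for 28 genes, 65.1% of the set, against 33.2% of all genes. Without copper replicate 3 the median was 0.03, and without both libraries of replicate 3 it was also 0.03. Without copper replicate 2 it was 0.16.

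**Figure D1:**
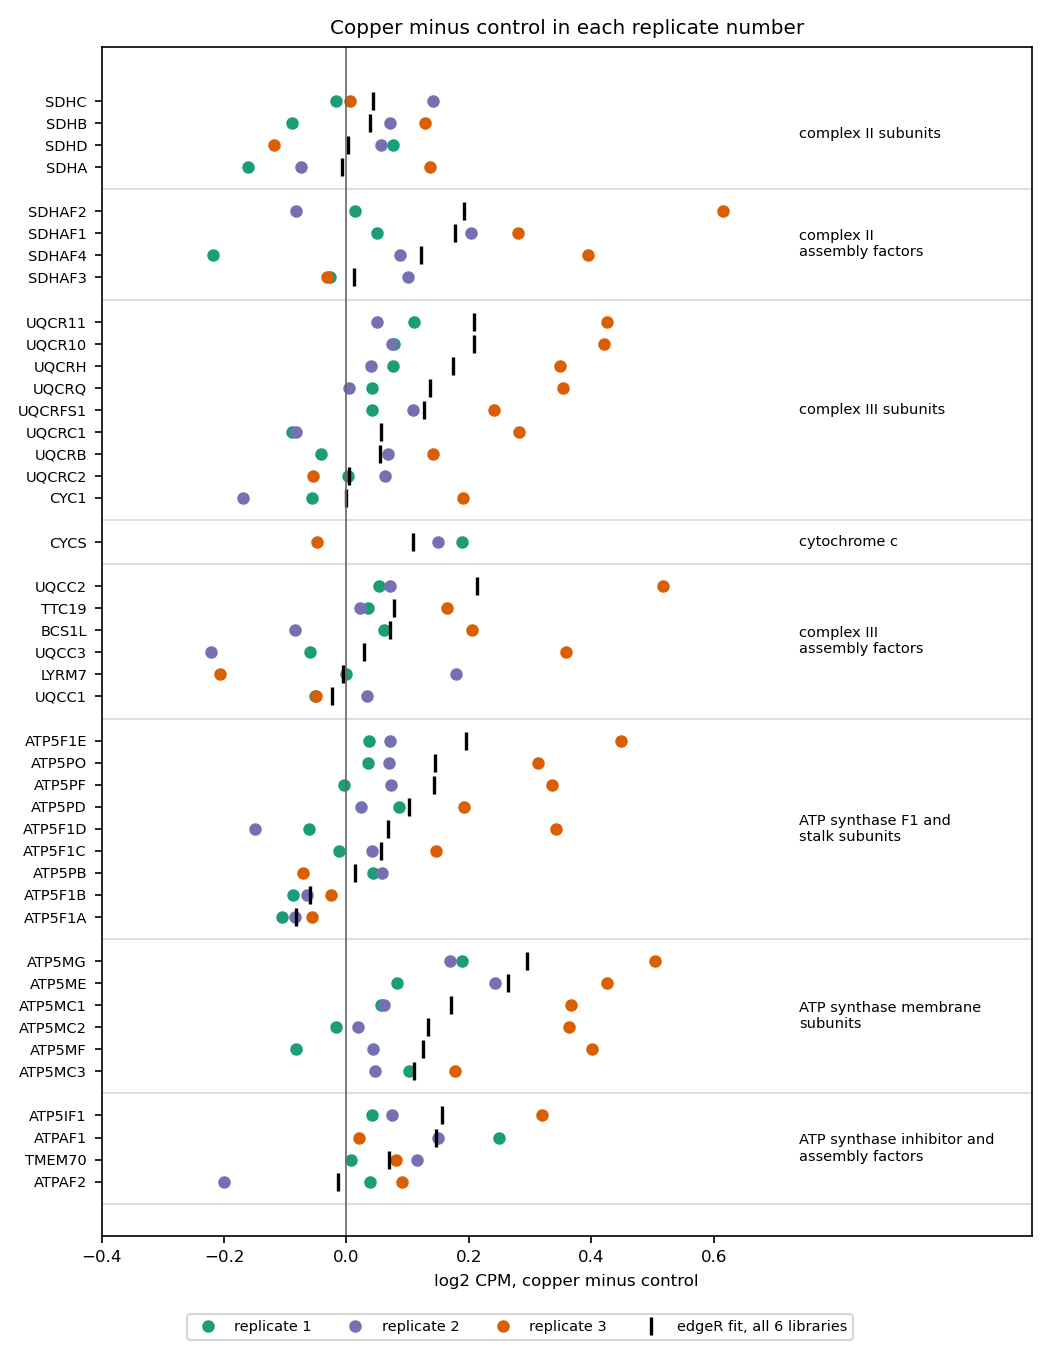
Difference in log2 CPM between copper and control for each of the 43 genes (rows, grouped by complex and role), as a dot for each replicate number and a bar for the edgeR log2 fold change over all 6 libraries. Replicate 3 lies to the right of replicates 1 and 2 for most genes, while it is the lowest of the 3 for SDHD, SDHAF3, UQCRC2, CYCS, LYRM7, ATP5PB and ATPAF1, and ATP5F1A and ATP5F1B lie left of 0 in all 3.

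Most genes of the set are short, and length moved with the difference in replicate 3. Transcript length here is the median over a gene's basic GENCODE transcripts. It had a median of 974 bases in the set and 2501 bases over all tested genes, and 51.2% of the set were at most 1000 bases long, against 9.68% of all genes. In replicate 3 the median difference of all 1244 tested genes of at most 1000 bases was 0.24, and that of the 1838 genes above 5000 bases was -0.28. The 22 short genes of the set stood at 0.35. In replicates 1 and 2 all short genes stood at 0.03 and 0.04, and the 22 at 0.05 and 0.06. Over all 6 libraries the median log2 fold change was 0.14 for the 22 and 0.11 for all genes of their length. After removal of a trend with length and with GC content from each library, the medians of the 43 were -0.01, 0.00097 and 0.07 in replicates 1, 2 and 3, with 20, 23 and 29 genes above 0. The blocked fit with that trend removed gave a median log2 fold change of 0.03, and called 0 of 43 genes against 1.98% of all genes.

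**Figure D2:**
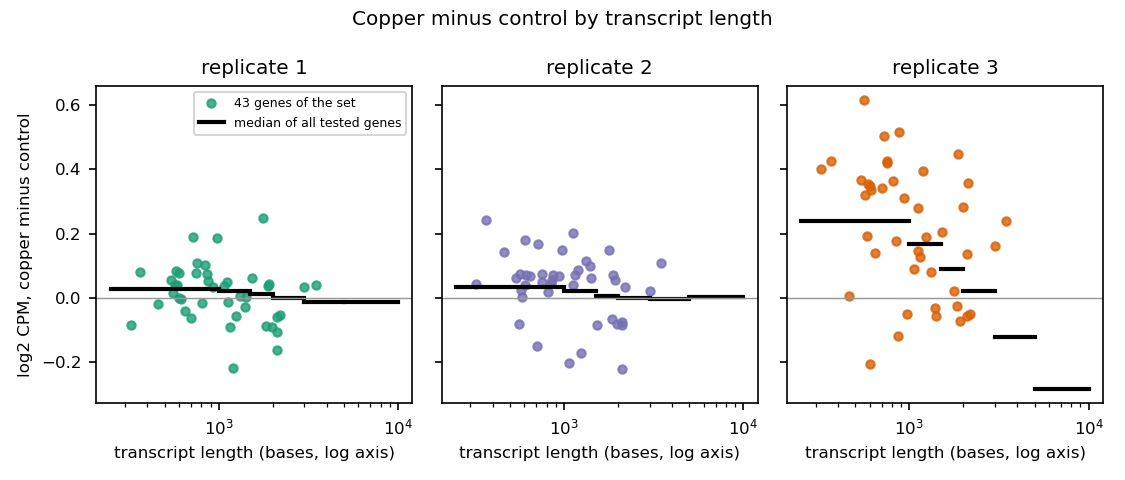
Difference in log2 CPM between copper and control against transcript length (log axis, bases) in replicates 1, 2 and 3. Dots are the 43 genes and black lines the medians of all tested genes in 6 length classes, the last of which is open above 5000 bases and drawn to the right edge. In replicate 3 the lines step down from 0.24 for the shortest class to -0.28 for the longest, and most dots of short genes lie near or above their line.

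Promoter sequences are shown for 4 genes whose values are given further on, 3 with a large difference in replicate 3 and CYCS, whose difference was lowest in replicate 3. They are RefSeq sequences of build GRCh38.p14, the 250 bases before the start site on the gene's own strand. Capitals mark matches to 2 motifs known from respiratory gene promoters, searched on both strands: GCGCANGCG for the factor NRF1, and CCGGAAG for ETS factors such as GABPA. The YY1 motif, AAGATGGCG, had no match in these 4. No motif overlapped another here. Only exact matches were searched, so near matches to the NRF1 motif, as in the CYCS window, stay in small letters. The NRF1 motif was first searched in a longer form with a C added at its end, and the shorter form was chosen after the values of the longer one were seen, so both are given.
ATP5ME (chr4:674277-674526, minus strand): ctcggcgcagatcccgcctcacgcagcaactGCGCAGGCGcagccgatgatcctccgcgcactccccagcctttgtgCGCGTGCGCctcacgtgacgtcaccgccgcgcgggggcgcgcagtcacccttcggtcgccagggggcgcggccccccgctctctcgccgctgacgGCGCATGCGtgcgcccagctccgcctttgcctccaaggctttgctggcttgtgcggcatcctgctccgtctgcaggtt
UQCR11 (chr19:1605463-1605712, minus strand): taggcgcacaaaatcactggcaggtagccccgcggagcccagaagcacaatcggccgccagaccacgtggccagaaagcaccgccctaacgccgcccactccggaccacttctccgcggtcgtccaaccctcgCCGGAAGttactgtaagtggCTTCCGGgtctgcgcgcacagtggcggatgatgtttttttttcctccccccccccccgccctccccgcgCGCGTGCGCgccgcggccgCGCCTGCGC
UQCRH (chr1:46303448-46303697, plus strand): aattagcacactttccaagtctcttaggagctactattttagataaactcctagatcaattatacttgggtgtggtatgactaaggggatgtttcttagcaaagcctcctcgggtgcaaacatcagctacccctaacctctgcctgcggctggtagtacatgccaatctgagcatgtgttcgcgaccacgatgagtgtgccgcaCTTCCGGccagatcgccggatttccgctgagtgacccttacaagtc
CYCS (chr7:25125261-25125510, minus strand): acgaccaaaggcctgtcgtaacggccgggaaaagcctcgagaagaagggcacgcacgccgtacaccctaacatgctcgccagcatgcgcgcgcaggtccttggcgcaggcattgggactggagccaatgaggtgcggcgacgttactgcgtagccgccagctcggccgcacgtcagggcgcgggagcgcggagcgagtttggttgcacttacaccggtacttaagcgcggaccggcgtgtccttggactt
UQCR11 holds 2 matches of each motif, ATP5ME 3 of the NRF1 motif and UQCRH 1 of the ETS motif. These genes do not stand for the set. Among others with a large difference in replicate 3, SDHAF2 (0.61) had an ETS match and UQCC2 (0.52) an NRF1 match. ATP5MG (0.50), ATP5F1E (0.45) and UQCR10 (0.42) had a promoter entry but no match to any motif searched.

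Promoter entries were found for 34 of the 43 genes, 4 of them with more than 1 window. The NRF1 motif was in 14 of the 34 (41.2%), against 15.4% of 10299 tested genes with an entry and 6.56% of all 35116 windows. Its longer form was in 12 (35.3%), against 12.1% and 5.08%. The ETS motif was in 11 (32.4%), against 19.1% of tested genes and 8.52% of all windows. The YY1 motif was in 1, ATP5PF, against 1.41% and 0.652%. These matches are a description of letters, not of binding. In replicate 3 the 14 genes with the NRF1 motif had a median difference of 0.30 and the 20 without it one of 0.20. With the longer form the medians were 0.26 for 12 genes and 0.24 for 22, so the gap between genes with and without the motif depended on its last base. With the shorter form the medians were -0.0081 with the motif and 0.04 without it in replicate 1, 0.06 and 0.06 in replicate 2, and 0.12 and 0.12 for the log2 fold change over all libraries. With and without the ETS motif, the medians in replicate 3 were 0.19 for 11 genes and 0.28 for 23. They were 0.01 and 0.04 in replicate 1 and 0.05 and 0.07 in replicate 2. For the log2 fold change over all libraries they were 0.10 and 0.13.

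Among the 4 subunits of complex II, log2 fold changes lay between -0.0080 and 0.04. SDHA, the flavoprotein that oxidises succinate, was at 57.4, 57.5 and 93.6 CPM in copper replicates 1, 2 and 3 and at 64.2, 60.5 and 85.1 in control. Replicate 3 was the highest in both groups, and the groups overlapped. Its log2 fold change was -0.0080 (SE 0.22), and it had the largest excess of replicate 3 over the mean of replicates 1 and 2 in the set, 0.70 in copper and 0.45 in control on the log2 scale. SDHB, the iron-sulfur subunit, had 0.04 (SE 0.09). The membrane anchors SDHC and SDHD, which hold the coenzyme Q site, had 0.04 (SE 0.09) and 0.0024 (SE 0.10). SDHC (Entrez 6391, chr1:161314381-161375340) was at 45.1, 46.2 and 41.8 CPM in copper and 45.6, 41.8 and 41.6 in control. Here replicate 3 was lowest in both groups, so the 4 subunits did not share the replicate 3 pattern.

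The 4 complex II assembly factors had a median of 0.15. SDHAF1 (Entrez 644096, chr19:35995188-35996312), which guards the iron-sulfur subunit during assembly, was at 5.79, 6.17 and 6.26 CPM in copper and 5.59, 5.34 and 5.13 in control. All 3 copper libraries stood above all 3 control libraries, as they did for 5.45% of all genes. The mean was 6.07 ± 0.25 in copper and 5.36 ± 0.23 in control (SD, n = 3). By edgeR the log2 fold change was 0.18 (SE 0.14) and its unadjusted p 0.24. SDHAF2, which helps attach the flavin to SDHA, had 0.19 (SE 0.17). Its differences were 0.01, -0.08 and 0.61 in replicates 1, 2 and 3, the last the largest of any gene of the set in any replicate. SDHAF4, which acts on flavinated SDHA, had 0.12, with -0.22, 0.09 and 0.40. SDHAF3, a partner of SDHAF1, had 0.01.

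Complex III subunits were above 0 for 8 of 9 (9 of 9 with upper-quartile and total-count scaling, and 5 of 9 with the length and GC trend removed), with a median of 0.13 and differences of 0.04, 0.05 and 0.28 in replicates 1, 2 and 3. Of the large core subunits UQCRC1 had a log2 fold change of 0.06 and UQCRC2 0.0035. Of the redox subunits the cytochrome c1 gene CYC1 had -0.00060 and the Rieske iron-sulfur protein UQCRFS1 0.13. Of the small supernumerary subunits UQCRH, the hinge protein at the cytochrome c1 site, had 0.17, UQCR10 0.21, UQCR11 0.21, UQCRQ 0.14 and UQCRB 0.05.

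UQCR11 (Entrez 10975, chr19:1597169-1605462), with the smallest p of the complex III subunits, was at 68.4, 61.7 and 85.9 CPM in copper and 63.3, 59.6 and 63.9 in control. The copper mean was 72.0 ± 12.5 and the control mean 62.3 ± 2.37 (SD, n = 3), with a log2 fold change SE of 0.13 and an unadjusted p of 0.16 by edgeR. Copper replicate 3 was far above the rest, and copper replicate 2 was below 2 control libraries. UQCRH was at 198, 191 and 282 CPM in copper and 188, 186 and 221 in control, with replicate 3 highest in both groups. UQCRC2 went another way, at 163, 167 and 163 CPM in copper and 163, 160 and 169 in control, so that all 6 libraries lay close together. UQCRH has a near-identical copy, UQCRHL, which held 5.996 to 8.95 CPM, so the split of reads between the pair is uncertain. The same holds for SDHA, of whose copies SDHAP1 held 12.4 to 17.4 CPM and SDHAP2 22.4 to 37.0.

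The 6 complex III assembly factors had a median of 0.05. UQCC2 (Entrez 84300, chr6:33696765-33711700), needed early in assembly, was at 61.0, 53.7 and 67.7 CPM in copper and 58.8, 51.1 and 47.3 in control, a log2 fold change of 0.21 (SE 0.13). Each copper library was above the control library of its number, by 0.05, 0.07 and 0.52, and the groups overlapped. Its partner UQCC1 had -0.02 and UQCC3 0.03, with -0.06, -0.22 and 0.36 in the 3 replicates. BCS1L, which inserts the Rieske protein, had 0.07, TTC19, which clears its fragments, 0.08, and LYRM7, which holds the Rieske protein before insertion, -0.0062. For LYRM7 the differences were -0.00086, 0.18 and -0.21.

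Cytochrome c had a log2 fold change near the median of the set but another order of replicates. CYCS (Entrez 54205, chr7:25118656-25125260) was at 240, 228 and 165 CPM in copper and 211, 206 and 170 in control. Replicate 3 was the lowest library in each group, by 0.51 in copper and 0.29 in control below the mean of replicates 1 and 2 on the log2 scale, the lowest such values in the set. The log2 fold change was 0.11 (SE 0.16), with differences of 0.19, 0.15 and -0.05. It was 0.0029 without copper replicate 1, 0.05 without copper replicate 2, 0.26 without copper replicate 3 and 0.02 without control replicate 3. Without both libraries of replicate 3, edgeR with the block called CYCS (log2 fold change 0.17, adjusted p 0.0136) and ATPAF1 (0.20, adjusted p 0.0479). That is 2 of 43 where 7.03% of all genes were called, a share near the background. CYCS has many processed pseudogenes, of which CYCSP52 had 0 to 5 counts.

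**Figure D3:**
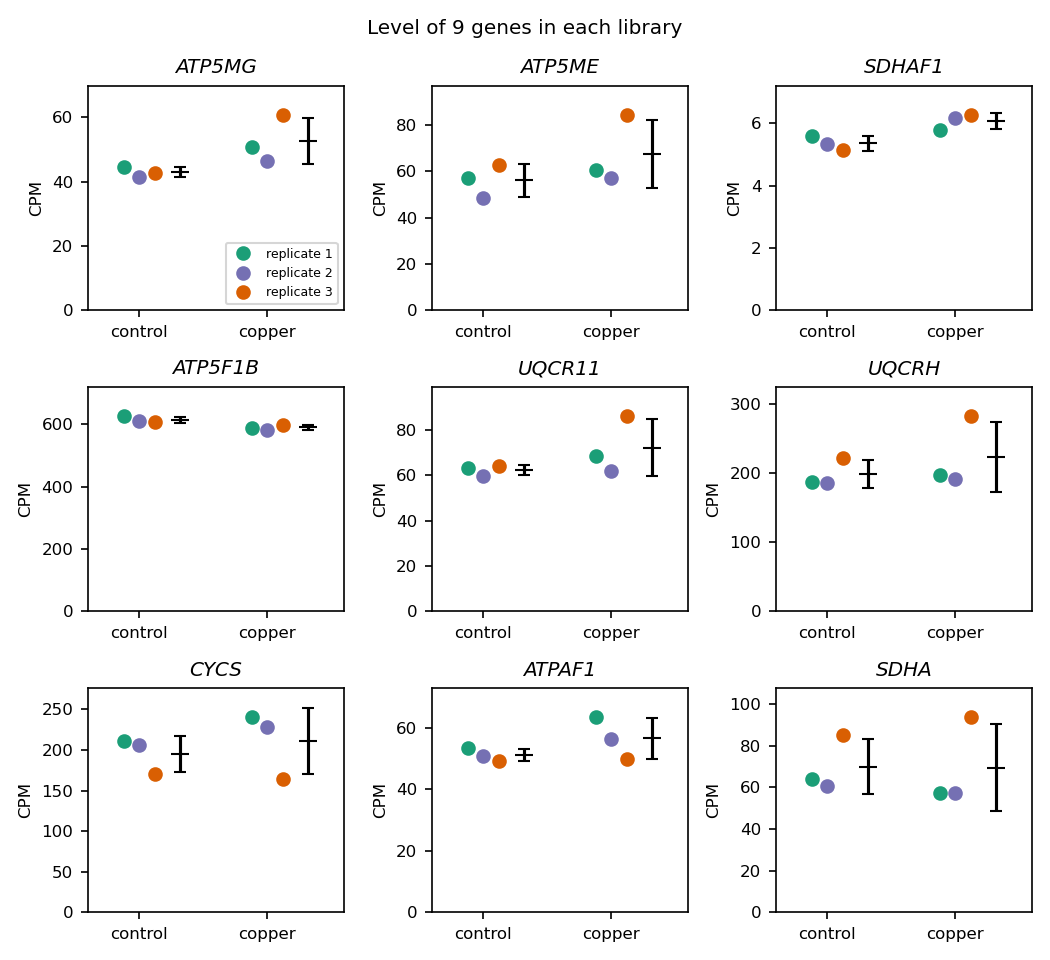
CPM of 9 genes in each library, control on the left and copper on the right of each panel, with dots coloured by replicate number and the mean ± SD of 3 libraries beside them. ATP5MG, SDHAF1 and ATP5F1B do not overlap between groups, replicate 3 is highest for SDHA and UQCRH in both groups, and it is lowest for CYCS in both. Copper lay wholly above control for 5.45% of all tested genes and wholly below for 5.35%.

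Within ATP synthase the alpha and beta subunits of the catalytic head and the small membrane subunits differed in sign. ATP5F1A, alpha, and ATP5F1B, beta, had log2 fold changes of -0.08 (SE 0.09) and -0.06 (SE 0.08), each smaller than its SE. Their transcript lengths are 2101.5 and 1839 bases, while the membrane subunits are all under 1000. The log2 fold changes of ATP5F1A and ATP5F1B stayed below 0 under all 23 alternatives run. These were the 2 genes of the set lower in copper in all 3 replicates, as were 17% of all genes. ATP5F1B (Entrez 506, chr12:56638175-56645984) was at 588, 582 and 597 CPM in copper and 625, 609 and 607 in control. Every copper library lay below every control library, as for 5.35% of all genes. Its means were 589 ± 7.24 and 614 ± 9.92 (SD, n = 3), with an unadjusted p of 0.51 by edgeR. ATP5F1A was at 304, 286 and 276 CPM in copper and 327, 303 and 287 in control.

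The other subunits of the head and stalks were mostly above 0. The central stalk gene ATP5F1C, the gamma subunit, had 0.06, ATP5F1D, delta, 0.07 and ATP5F1E, epsilon, 0.19. ATP5F1E (Entrez 514, chr20:59025475-59032335) was at 250, 234 and 309 CPM in copper and 244, 223 and 226 in control, so copper replicate 3 stood alone. The peripheral stalk subunits ATP5PB, ATP5PD, ATP5PF and ATP5PO had 0.01, 0.10, 0.14 and 0.15. ATP5PF and ATP5PD overlap genes on the opposite strand in the table, GABPA and KCTD2, which held 48.4% and 32.4% as many counts. SDHC overlaps CFAP126 and UQCC3 overlaps LBHD1 in the same way, with 19.89% and 19.96% as many counts. Whether counting used strand was not given in the sources used here, so reads of these pairs may be mixed.

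All 6 membrane subunits had positive log2 fold changes, with a median of 0.15, and for all 6 the highest library was copper replicate 3. That library was highest for 33.2% of all genes and for 12 of 12 cytochrome c oxidase subunits. All 6 are under 1000 bases, a class with a median of 0.11 over all genes. In the blocked fit after removal of the length and GC trend, ATP5MC1, ATP5MC2, ATP5MC3 and ATP5MF were at 0.06, 0.02, 0.03 and 0.03. Without both libraries of replicate 3 the log2 fold changes of ATP5MC2 and ATP5MF were below 0, and 4 of 6 were above it. Their summed level was 589, 555 and 703 CPM in copper and 577, 528 and 551 in control, or 616 ± 77.9 and 552 ± 24.5 (SD, n = 3). ATP5MG (Entrez 10632, chr11:118401389-118409847), the g subunit that joins ATP synthase dimers, was at 50.7, 46.5 and 60.6 CPM in copper and 44.5, 41.4 and 42.7 in control. All copper libraries stood above all control libraries, as for 2 of the 43 genes here and 5.45% of all genes. The differences were 0.19, 0.17 and 0.50 in replicates 1, 2 and 3. The means were 52.6 ± 7.21 and 42.9 ± 1.56 (SD, n = 3), and the log2 fold change was 0.30 (SE 0.12). By edgeR the unadjusted p was 0.0389. The adjusted p was 1.00, and 0.50 when replicate number was a block. Without copper replicate 3 the log2 fold change was 0.18, and in the blocked fit after removal of the length and GC trend it was 0.22 with an adjusted p of 0.18.

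ATP5ME, the e subunit that works beside g at the dimer interface, was at 60.6, 57.2 and 84.2 CPM in copper and 57.2, 48.3 and 62.7 in control. It was higher in copper within each replicate, by 0.08, 0.24 and 0.43, but the groups overlapped, since control replicate 3 lay above copper replicates 1 and 2. Its log2 fold change was 0.26 (SE 0.17). It was 0.07 without copper replicate 3, 0.17 without control replicate 2, and 0.15 in the blocked fit after removal of the length and GC trend. ATP5MF, the f subunit and the most abundant of the set per length, was at 140, 135 and 169 CPM in copper and 148, 131 and 128 in control, a log2 fold change of 0.12.

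ATP5MC1, ATP5MC2 and ATP5MC3 are 3 genes for the same mature c subunit of the rotating ring and differ in their import sequences. ATP5MC1 was at 66.9, 60.7 and 80.9 CPM in copper and 64.3, 58.2 and 62.7 in control. ATP5MC2 was at 131, 127 and 167 in copper and 133, 125 and 130 in control. ATP5MC3 was at 140, 128 and 141 in copper and 130, 124 and 125 in control. Their log2 fold changes were 0.17, 0.13 and 0.11, each with overlapping groups, and their differences in replicate 3 were 0.37, 0.36 and 0.18. The 3 genes share coding sequence, so some reads may be split among them.

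ATP5IF1, the inhibitor that stops ATP synthase from running backwards and burning ATP, was at 119, 120 and 156 CPM in copper and 116, 114 and 125 in control. Its log2 fold change was 0.16 (SE 0.13), again with replicate 3 highest in both groups. ATPAF1, a chaperone of the beta subunit, was at 63.3, 56.4 and 49.9 CPM in copper and 53.2, 50.8 and 49.1 in control, a log2 fold change of 0.15 (SE 0.11). Its differences were 0.25, 0.15 and 0.02, with replicate 3 the smallest, and without copper replicate 1 the log2 fold change was 0.05. ATPAF2, a chaperone of the alpha subunit, had -0.01, and TMEM70, which helps build the c ring, 0.07.

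Counted over replicates, 18 of 43 genes were higher in copper in all 3, 41.9% of the set against 17.7% of all genes, and 2 were lower in all 3. The 18 included 5 of 9 complex III subunits, 7 of 15 ATP synthase subunits and 0 of 4 complex II subunits. Of the 18, 12 were at most 1000 bases long and 6 were longer. The longer ones include ATP5F1E, whose 1878 bases are a median over 3 transcripts, so this split depends on the length chosen. Of the complex I subunits, 23 of 37 (62.2%) were higher in all 3, and of the cytochrome c oxidase subunits 3 of 12 (25%). A share over genes of like length was not taken. The 18 share libraries, and their number was not tested.

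Levels between genes were compared as CPM per kilobase of transcript, mean ± SD over the 6 libraries. They spanned from 4.52 ± 0.55 for UQCC3 to 440 ± 47.0 for ATP5MF. The highest of complex II was SDHC at 94.96 ± 4.71 and of complex III UQCRH at 349 ± 61.6. The rank of SDHC rests on its length of 460 bases. By mean CPM it was the lowest complex II subunit, at 43.7, against 55.6 for SDHD, 69.7 for SDHA and 84.0 for SDHB. ATP5MF and UQCRH overlapped in range, as did UQCRH and ATP5F1B at 327 ± 8.43. ATP5IF1, at 220 ± 27.3, lay within the range of the ATP synthase subunits. Assembly factors ran from UQCC3 up to 78.3 ± 5.0 for LYRM7. The Rieske gene UQCRFS1, at 14.7 ± 1.25, was the subunit with the lowest level per length. That rank rests on its length of 3475 bases. By mean CPM, at 50.9, it lay above SDHC, ATP5MG at 47.7 and ATP5F1D at 50.6. These levels depend on the transcript length chosen, and genes with long and short isoforms can shift in order.

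**Figure D4:**
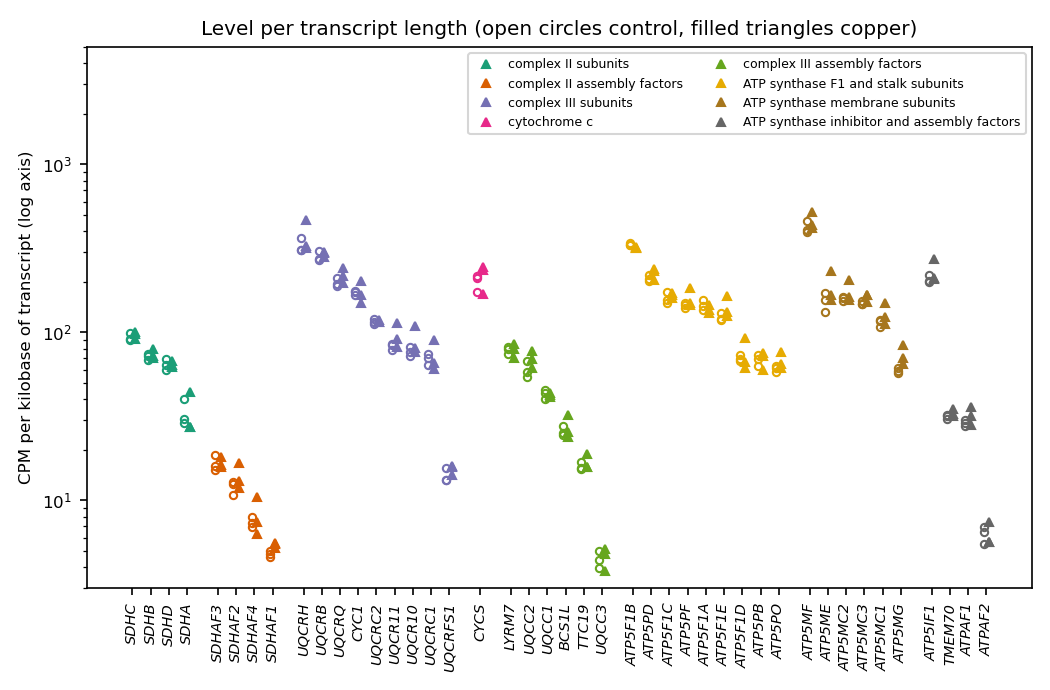
CPM per kilobase of transcript (log axis) of the 43 genes in each library, grouped by complex and role, with open circles for control and filled triangles for copper. Subunits mostly lie above assembly factors, from 4.52 for UQCC3 to 440 for ATP5MF as means over 6 libraries, and the 2 groups lie close together for each gene.

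Calls were also absent in the rest of the respiratory chain and its partners, as in nearly all genes tested. By edgeR, 0 of 37 nuclear complex I subunits and 0 of 12 cytochrome c oxidase subunits were called with or without the block. Of all genes, 0% were called without it and 0.17% with it, so 0 calls do not set these lists apart. The median log2 fold changes were 0.13 for complex I and 0.11 for cytochrome c oxidase. In replicates 1, 2 and 3 those medians were 0.04, 0.07 and 0.31 for complex I and -0.02, 0.03 and 0.32 for cytochrome c oxidase. A further 11 genes of complex III and ATP synthase were tested, with 0 called and a median of 0.14. Of these OCIAD2, linked to complex III assembly, had the smallest p (log2 fold change 0.28, SE 0.11, adjusted p 1.00). The small ATP synthase subunits ATP5MK and ATP5MJ had 0.12 and 0.16.

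Neighbouring lists were also at 0 calls. Coenzyme Q synthesis had a median of 0.06 over 13 genes, nucleotide and phosphate carriers 0.06 over 3, and genes that shape the inner membrane 0.07 over 12. Transcription regulators of respiratory genes had a median of 0.0074 over 8 genes, and in replicate 3 they stood at -0.15, with 1 of 8 above 0. These values are not adjusted for transcript length, and in replicate 3 all tested genes above 5000 bases stood at -0.28. Whether length bears on the regulators' values was not tested.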

How the data were processed

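Per the labels' protocols, total RNA was made into RNA-seq libraries with a NEBNext directional kit. Raw counts per gene for the 6 libraries are in 1 table deposited by the authors. The submitters' processing notes name STAR, FastQC, edgeR and build GRCh38. The counting program, its use of strand and its treatment of reads that match several genes were not given in the sources used here. Deposited starts count from 0, and 1 was added. For 29 of the 43 genes they then equal the RefSeq start. Genes without a symbol (5, 0.000814% of counts) were left out.

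edgeR 4.0.16 in R 4.3.3 was used. The filter was filterByExpr (minimum count 10, minimum total 15). TMM scaling and a robust quasi-likelihood fit on group followed, with Benjamini-Hochberg adjustment over all 12944 genes and a threshold of 0.05. The prior count for log2 fold changes was 2, and SE is the log2 fold change over the square root of F. CPM are counts over TMM library size. Alternatives were 3 other scalings, 2 filters, DESeq2 1.42.0, limma-voom (limma 3.58.1), a prior count of 0.125, the replicate block, the block with length and GC trends (splines of 4 degrees of freedom, GENCODE 29, values for 99.2% of genes) and left-out libraries. Scripts were tested on simulated data.

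Replicate numbers come from the labels, which name no shared batch. Deviations from the group means of same-numbered copper and control libraries correlated at 0.46, 0.40 and 0.65 across genes for replicates 1, 2 and 3, above the minimum of 0.1, so blocked values are given. Replicates 1 and 2 also correlated across numbers, copper 1 with control 2 at 0.32 and copper 2 with control 1 at 0.27, so they are set apart less clearly than replicate 3.

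The 43 genes and all lists were chosen with earlier results of these data known. Every gene of the set is named. Values in each library are given for genes whose groups do not overlap, the smallest p of each list, the highest level per length of each complex, ATP5MC1, ATP5MC2, ATP5MC3, ATP5IF1 and CYCS. SDHA, UQCRC2, ATP5F1A and ATP5ME were added after their values were seen.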

Additional observations from a re-analysis of the deposited data

How the results depend on the processing

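The call count and the median were recomputed under 23 alternatives, 12 of which left out libraries. The number of genes called was 0 under all 11 others, and from 0 to 2 where libraries were left out. The 2, CYCS and ATPAF1, were called by edgeR with the replicate block and without replicate 3. With all libraries the replicate block changed no call, and the median was 0.097 with it and 0.10 without. The median ranged from 0.026 to 0.13 under the 11 others, with the lowest value where the length and GC trend was removed in the blocked fit. It ranged from 0.032 to 0.16 with libraries left out, with 0.032 without copper replicate 3, 0.034 without both libraries of replicate 3, and 0.16 without copper replicate 2. It stayed above 0 throughout, and scaling moved the median of all genes by at most 0.027. Of the single genes' results, 883 kept direction and call, 104 changed sign and 2 were called only in the alternative. Those that changed sign were uncalled in every fit, and after the change they lay between -0.14 and 0.16.

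With upper-quartile scaling the log2 fold changes of SDHA (0.022), CYC1 (0.027), LYRM7 (0.014) and ATPAF2 (0.012) changed sign, and with total counts those of SDHA (0.021), CYC1 (0.028), LYRM7 (0.020), UQCC1 (0.0037) and ATPAF2 (0.014). With no filter SDHD (-0.017), SDHAF3 (-0.0065), UQCRC2 (-0.016) and ATP5PB (-0.0067) did so. With the replicate block and the length and GC trend removed, SDHB (-0.032), SDHC (-0.048), SDHD (-0.076), SDHAF3 (-0.019), UQCRC1 (-0.0050), UQCRC2 (-0.040), UQCRB (-0.0072), BCS1L (-0.0021), UQCC3 (-0.0055), ATP5F1D (-0.060) and ATP5PB (-0.0029) did. Over the fits with libraries left out, 21 genes changed sign at least once. In complex II the ranges were -0.28 to 0.16 for SDHA, -0.016 to 0.097 for SDHB, -0.0071 to 0.084 for SDHC, -0.049 to 0.065 for SDHD, -0.036 to 0.32 for SDHAF2, -0.051 to 0.098 for SDHAF3 and -0.11 to 0.27 for SDHAF4. In complex III they were -0.13 to 0.16 for UQCRC1, -0.027 to 0.032 for UQCRC2, -0.13 to 0.091 for CYC1, -0.028 to 0.27 for UQCRH, -0.066 to 0.16 for BCS1L, -0.012 to 0.12 for TTC19, -0.10 to 0.089 for LYRM7, -0.071 to 0.013 for UQCC1 and -0.14 to 0.14 for UQCC3. For ATP synthase they were -0.13 to 0.18 for ATP5F1D, -0.055 to 0.11 for ATP5PB, -0.0041 to 0.20 for ATP5MC2, -0.024 to 0.23 for ATP5MF and -0.16 to 0.072 for ATPAF2. What caused these sign changes was not tested. The Poisson error of 1 library is 0.15 on the log2 scale at the lowest count, 95, which is as large as the differences described, and 0.04 at 1083 counts, the median over genes of the lowest count. The 3 libraries a group limit the precision further.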
